A study of Mus musculus with 6 samples.

Results

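Branched-chain amino acid catabolism was followed through 10 genes: the cytosolic transaminase Bcat1 and 9 genes of mitochondrial enzymes, Bcat2, Bckdha, Bckdhb, Dbt, Bckdk, Ivd, Mccc1, Mccc2 and Hibch. They were chosen by gene symbol, and all 10 were found among the 54385 rows of the deposited table and all 10 were among the 18114 genes tested. RNA came from brown fat, a heat-producing tissue, taken from the interscapular depot of C57BL/6N mice. There were 3 libraries from ADCY3∆AT mice, which lack the product of adenylyl cyclase 3 that the labels call AT, and 3 from wild-type (WT, wt/wt) mice. Both groups were 20 weeks old, had eaten chow until 8 weeks of age and then a high-fat diet (D12492) for 12 weeks, and spent 24 h at 4 °C. There was no chow-fed or warm-housed group, so every value describes obesogenic diet and cold together. The labels say neither how the allele was made nor whether each library is a separate animal, so p-values measure only the spread between these libraries, which may be technical.

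Leucine, isoleucine and valine are broken down in a shared opening and then along separate branches. A transaminase, BCAT1 in the cytosol or BCAT2 in mitochondria, moves the amino group to 2-oxoglutarate and leaves a branched-chain keto acid and glutamate. The branched-chain keto acid dehydrogenase complex then commits the carbon skeleton to oxidation, and a dedicated kinase, BCKDK, switches the complex off by phosphorylation while the phosphatase PPM1K switches it back on. IVD and methylcrotonyl-CoA carboxylase (MCCC1 with MCCC2) belong to the leucine branch, and HIBCH to the valine branch. Cold-exposed brown fat is known to take up and oxidise these amino acids, importing them into mitochondria through the carrier SLC25A44.

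The libraries held from 44826777 to 54933588 estimated counts. The targeted gene was checked through Adcy3, at 349, 342 and 506 CPM (normalised counts per 1e6 counts, TMM scaling) in ADCY3∆AT and 677, 728 and 652 CPM in WT, and through a row that is not in the annotation and shares the last digits of its identifier, which was listed at 0 in every ADCY3∆AT library and averaged 553 CPM in WT. Ucp1, the uncoupling protein that defines brown adipocytes, stood at 10060, 10243 and 9972 CPM in ADCY3∆AT and 10483, 10327 and 10647 CPM in WT. The series design text names the depot inguinal and the sample labels name it interscapular. ADCY3∆AT replicate 3 lay closest to WT on the first principal component (38.2% of the variance), at -1.82, with the other ADCY3∆AT libraries at -53.2 and -22.7 and the WT libraries at 26, 22 and 29.8.

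Levels between genes were compared as CPM per kilobase of merged exons. On this scale the oxidative machinery was abundant and the cytosolic transaminase was scarce. Bckdha, the alpha subunit of the dehydrogenase's decarboxylase, led with 268 ± 17.0 CPM per kb in ADCY3∆AT and 279 ± 15.8 CPM per kb in WT (SD, n = 3 each), above 99.2% of the genes tested. Bckdhb, the beta subunit of the same decarboxylase, had 77.6 ± 4.20 CPM per kb in ADCY3∆AT and 81.2 ± 1.66 in WT, and Dbt, the lipoate-bearing transacylase core, 70.4 ± 6.27 in ADCY3∆AT and 80.0 ± 1.66 in WT. These neighbouring levels of Bckdhb and Dbt differed by less than 1 SD in WT. Ivd and Mccc2 came next, with 40.1 ± 4.24 and 42.8 ± 3.02 CPM per kb in ADCY3∆AT and 46.5 ± 3.91 and 46.1 ± 2.18 in WT, and these neighbours differed by less than 1 SD in both genotypes. Hibch had 37.1 ± 2.18 CPM per kb in ADCY3∆AT and 37.9 ± 0.175 in WT, and the kinase Bckdk 22.5 ± 1.19 in ADCY3∆AT and 20.5 ± 0.656 in WT. The mitochondrial transaminase Bcat2 had 13.7 ± 3.10 CPM per kb in ADCY3∆AT and 16.4 ± 1.66 in WT, and Mccc1 had 8.59 ± 0.654 in ADCY3∆AT and 9.92 ± 1.19 in WT. Bcat1 had 0.302 ± 0.142 CPM per kb in ADCY3∆AT and 0.132 ± 0.0199 in WT (SD, n = 3 each), above only 13.7% of the genes tested, while the mitochondrial members ranked from 82.2% to 99.2%.

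**Figure D1:**
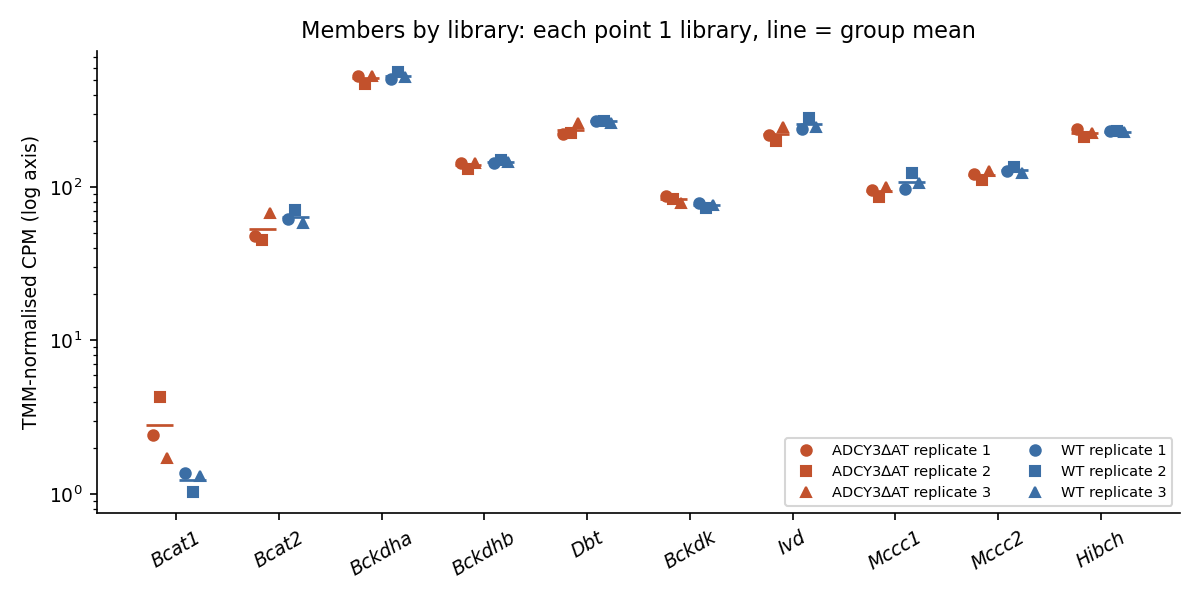
TMM-normalised CPM of the 10 members on a log axis, with ADCY3∆AT libraries left of WT libraries for each gene, 1 point per library (circle, square and triangle for replicates 1, 2 and 3) and a line at the group mean. Bcat1 lies between 1.02 and 4.29 CPM, far below the mitochondrial members, and its ADCY3∆AT points lie above its WT points.

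The cytosolic transaminase Bcat1 (ENSMUSG00000030268) lies on the minus strand of chromosome 6, at 144993835 to 145076184 of GRCm38. It had 2.43, 4.29 and 1.72 CPM in the ADCY3∆AT libraries, against 1.37, 1.02 and 1.31 CPM in the WT libraries. These values rest on 111, 211 and 80 estimated counts in ADCY3∆AT and 75, 45 and 60 in WT. Every ADCY3∆AT library lay above every WT library, with replicate 2 highest and replicate 3 only just above WT. The log2 fold change was 1.19 ± 0.33 (SE; 95% interval 0.43 to 1.945). It passed in DESeq2 (adjusted p = 0.0335), where 1.20% of genes with an adjusted p were called, 0.462% higher and 0.737% lower, and did not pass in edgeR's quasi-likelihood test (adjusted p = 0.271), where 0.00552% of genes were called. That share is 1 gene, the row outside the annotation that was at 0 in every ADCY3∆AT library (edgeR adjusted p = 7.9e-06). Leaving out ADCY3∆AT replicate 2 lowered the log2 fold change of Bcat1 to 0.75 (edgeR adjusted p = 0.656), and leaving out ADCY3∆AT replicate 3 gave 1.44 (edgeR adjusted p = 0.0817).

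The Bcat1 row sums transcripts from more than 1 start, and RefSeq (GRCm38.p6) lists a pair of them; for the opposite isozyme the window at the upstream start of Bcat2 is shown for comparison. Each window runs from 250 bases before a transcription start to 50 bases from it on, 5′ to 3′ on the gene's strand, with every CG dinucleotide in capitals, since the Bcat1 windows differ in their CG content.
Bcat1, upstream start, chr6:145076108-145076407, minus strand: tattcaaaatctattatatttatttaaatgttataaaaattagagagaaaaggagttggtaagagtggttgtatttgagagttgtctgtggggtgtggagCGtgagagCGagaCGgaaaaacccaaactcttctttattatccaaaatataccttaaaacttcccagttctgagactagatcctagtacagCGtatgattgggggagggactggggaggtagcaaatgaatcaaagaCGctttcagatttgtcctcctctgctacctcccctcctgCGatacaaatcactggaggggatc
Bcat1, internal start, chr6:145048763-145049062, minus strand: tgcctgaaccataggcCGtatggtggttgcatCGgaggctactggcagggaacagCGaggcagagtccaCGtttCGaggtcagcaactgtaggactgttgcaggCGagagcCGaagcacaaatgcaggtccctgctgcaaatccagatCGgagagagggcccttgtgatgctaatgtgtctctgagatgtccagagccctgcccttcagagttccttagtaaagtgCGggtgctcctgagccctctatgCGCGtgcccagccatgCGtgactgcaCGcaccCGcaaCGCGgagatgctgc
Bcat2, upstream start, chr7:45569903-45570202, plus strand: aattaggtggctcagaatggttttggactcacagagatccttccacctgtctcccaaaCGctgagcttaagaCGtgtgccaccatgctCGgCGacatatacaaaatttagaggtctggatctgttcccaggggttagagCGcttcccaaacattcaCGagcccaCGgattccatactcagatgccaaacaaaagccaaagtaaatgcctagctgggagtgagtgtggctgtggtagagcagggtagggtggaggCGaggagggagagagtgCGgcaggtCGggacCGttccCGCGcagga
The upstream Bcat1 window held 6 CG dinucleotides and 41.0% G and C, below the medians of 7 and 52.7% over all 32851 windows of the table. The internal Bcat1 window held 16 CG dinucleotides and 58.7% G and C, and the Bcat2 window 13 and 54.0%. Counts per gene do not say which Bcat1 start was used in either genotype.

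Of the 10 members 9 had RefSeq windows, 12 in all, and Dbt is named only. Each window was searched on both strands for the full cyclic AMP response element TGACGTCA, its shorter core TGACG (contained in the full element), the extended nuclear receptor half-site AAGGTCA, and the exact DR1 direct repeat of AGGTCA, which can overlap that half-site. None of these letters occurred in the 12 windows. Over all 32851 windows of that length the shares with a match were 1.79%, 20.8%, 4.72% and 0.0396%, in the same order.

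The mitochondrial transaminase Bcat2 (plus strand of chromosome 7, 45570153 to 45589711) had 48.0, 45.0 and 67.3 CPM in ADCY3∆AT, against 61.8, 71.1 and 58.7 CPM in WT. ADCY3∆AT replicates 1 and 2 lay below all WT libraries, whereas replicate 3 lay within their range. The log2 fold change was -0.26 ± 0.15 (SE; 95% interval -0.59 to 0.08) and did not pass in edgeR (adjusted p = 0.565) or DESeq2 (0.604). It was -0.46 without ADCY3∆AT replicate 3 (edgeR adjusted p = 0.0821), but -0.15 when replicate 2 was left out.

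The isozymes were then set against each other within each library. The log2 CPM of Bcat1 minus that of Bcat2 was -4.28, -3.38 and -5.25 in the ADCY3∆AT libraries and -5.46, -6.06 and -5.44 in the WT libraries. All ADCY3∆AT libraries thus lay above all WT libraries, by 1.35 on the log2 scale on average, and a two-sided exact permutation over the 20 possible assignments returned p = 0.1, below which 3 libraries per genotype cannot go. Without ADCY3∆AT replicate 2 the difference was 0.88. Per kilobase, Bcat1 supplied 2.07%, 3.84% and 1.06% of the summed transaminase level in ADCY3∆AT and 0.917%, 0.598% and 0.927% in WT. On this scale Bcat2 therefore made up nearly the whole sum in every library of either genotype. The merged exons hold 9322 bases for Bcat1 and 3900 for Bcat2, so the share of Bcat1 would be larger without the division by length.

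The same within-library difference was taken between Bcat1 and each of the other mitochondrial members. In all 9 pairs every ADCY3∆AT library lay above every WT library, and the average difference ranged from 0.94 (against Bckdk) to 1.35 (against Bcat2) on the log2 scale. The pairs share the Bcat1 values, so they are not separate observations, and no test was made on them beyond the Bcat2 pair.

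**Figure D2:**
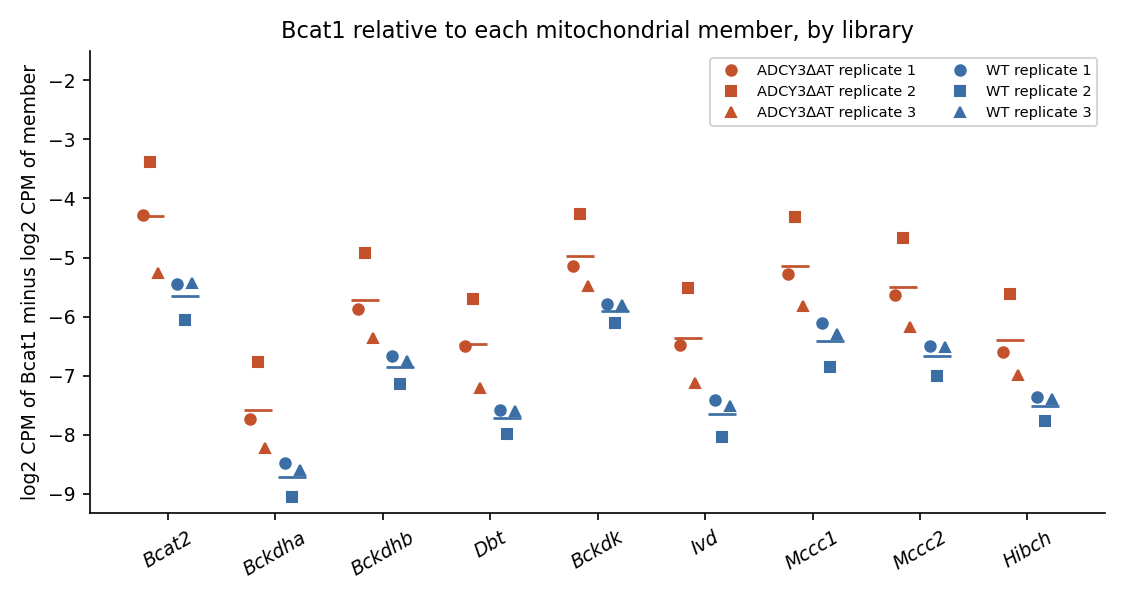
Log2 CPM of Bcat1 minus log2 CPM of each mitochondrial member, 1 point per library, ADCY3∆AT left of WT, with lines at group means. ADCY3∆AT libraries lie above WT libraries in all 9 columns, ADCY3∆AT replicate 2 (square) highest and replicate 3 (triangle) nearest to WT.

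The decarboxylase subunits of the dehydrogenase complex overlapped between genotypes. Bckdha had 527, 473 and 529.9 CPM in ADCY3∆AT and 505, 564 and 522 CPM in WT, with a log2 fold change of -0.06 ± 0.07 (SE; 95% interval -0.21 to 0.10). B3gnt8 lies on the opposite strand across 1171 of its 1899 exonic bases and averaged 57.4 estimated counts against 24729 for Bckdha, and no source used here says whether reads were assigned by strand. Bckdhb likewise overlapped, with 144, 131 and 144 CPM in ADCY3∆AT and 144, 149 and 147 CPM in WT (log2 fold change -0.07 ± 0.06, SE).

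Dbt, the core of the complex, was the only mitochondrial member whose ADCY3∆AT libraries all lay below the WT libraries. It had 222, 225 and 259.8 CPM in ADCY3∆AT, against 271, 271 and 261 CPM in WT. ADCY3∆AT replicate 3 missed the lowest WT library by little. The log2 fold change of -0.18 ± 0.07 (SE) did not pass in edgeR (adjusted p = 0.387; unadjusted p = 0.0274) or DESeq2 (0.344). It was -0.26 without ADCY3∆AT replicate 3 (edgeR adjusted p = 0.0821), but -0.14 without replicate 1 (0.587) and -0.15 without replicate 2 (0.746).

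Bckdk, the kinase that inactivates the complex, stood the other way, with 87.5, 83.5 and 78.7 CPM in ADCY3∆AT, against 78.2, 73.3 and 75.8 CPM in WT. The groups did not overlap, although ADCY3∆AT replicate 3 exceeded the highest WT library by less than 1 CPM. The log2 fold change was 0.13 ± 0.06 (SE), short of the threshold (edgeR adjusted p = 0.441; unadjusted p = 0.0455).
Ppm1k, the opposing phosphatase, singled out for its role after its values had been seen, had 53.2, 56.0 and 93.9 CPM in ADCY3∆AT and 79.6, 96.9 and 85.5 CPM in WT, a log2 fold change of -0.37 ± 0.20 (SE; edgeR adjusted p = 0.550). Per kilobase the kinase to phosphatase ratio was 2.68, 2.43 and 1.37 in ADCY3∆AT and 1.60, 1.23 and 1.45 in WT. It was high in ADCY3∆AT replicates 1 and 2 and within the WT range in replicate 3. Without replicate 3 Ppm1k was called lower (log2 fold change -0.68, edgeR adjusted p = 0.0424). That fit leaves out the ADCY3∆AT library closest to WT, and it called 66 of all 18582 genes tested, against 1 of 18114 with all libraries. Bckdk relative to Dbt, again per kilobase, was 0.357, 0.336 and 0.274 in ADCY3∆AT and 0.262, 0.245 and 0.263 in WT, without overlap. Relative to Bckdha, which carries the sites that the kinase phosphorylates, Bckdk was 0.0853, 0.0909 and 0.0763 in ADCY3∆AT and 0.0796, 0.0669 and 0.0746 in WT, with overlap.

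In the leucine branch, Ivd, isovaleryl-CoA dehydrogenase, had 219, 198 and 245 CPM in ADCY3∆AT, against 239.9, 280.3 and 247 CPM in WT. ADCY3∆AT replicate 3 fell inside the WT range. Its log2 fold change was -0.21 ± 0.09 (SE; edgeR adjusted p = 0.437; unadjusted p = 0.0441). Mccc1, the biotin-bearing subunit of methylcrotonyl-CoA carboxylase, had 96.2, 86.0 and 99.9 CPM in ADCY3∆AT and 96.7, 123 and 107 CPM in WT, and its partner Mccc2 had 122, 111 and 127 CPM in ADCY3∆AT and 127, 136 and 124 CPM in WT. Both overlapped, with log2 fold changes of -0.21 ± 0.09 and -0.11 ± 0.07 (SE; edgeR adjusted p = 0.473 and 0.609). In the valine branch, Hibch, 3-hydroxyisobutyryl-CoA hydrolase, had 239, 212 and 224 CPM in ADCY3∆AT and 230.3, 231 and 229 CPM in WT. Its WT libraries were the tightest of any member (coefficient of variation 0.461%), and its log2 fold change of -0.03 ± 0.06 (SE; 95% interval -0.16 to 0.10) changed sign without ADCY3∆AT replicate 2.

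Counted together, 0 of the 10 members passed in edgeR and 1, Bcat1, passed in DESeq2. At an unadjusted p under 0.05 in edgeR there were 4, with Bcat1 and Bckdk higher and Dbt and Ivd lower, where 11.0% of all genes tested reached that level, 5.23% higher and 5.78% lower. The genotypes did not overlap for 3 members, with Bcat1 and Bckdk higher and Dbt lower, against 16.5% of all genes, 7.68% higher and 8.83% lower. Of the mitochondrial members 8 of 9 had a negative log2 fold change, with a median of -0.11, while 49.1% of all genes were negative and their median was 0.00. The members share libraries: 7 of the 9 mitochondrial members were lowest within ADCY3∆AT in replicate 2, 8 of 9 were highest within WT in replicate 2, and for 9 of the 10 members ADCY3∆AT replicate 3 was the ADCY3∆AT library nearest the WT mean. The members are therefore not independent of each other. Without ADCY3∆AT replicate 2 the log2 fold changes of Bckdha, Bckdhb, Ivd and Mccc2 were -0.01, -0.02, -0.14 and -0.05, nearer to 0 than with it, and without WT replicate 2 those of Bckdha, Mccc1 and Mccc2 were -0.01, -0.11 and -0.07.

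**Figure D3:**
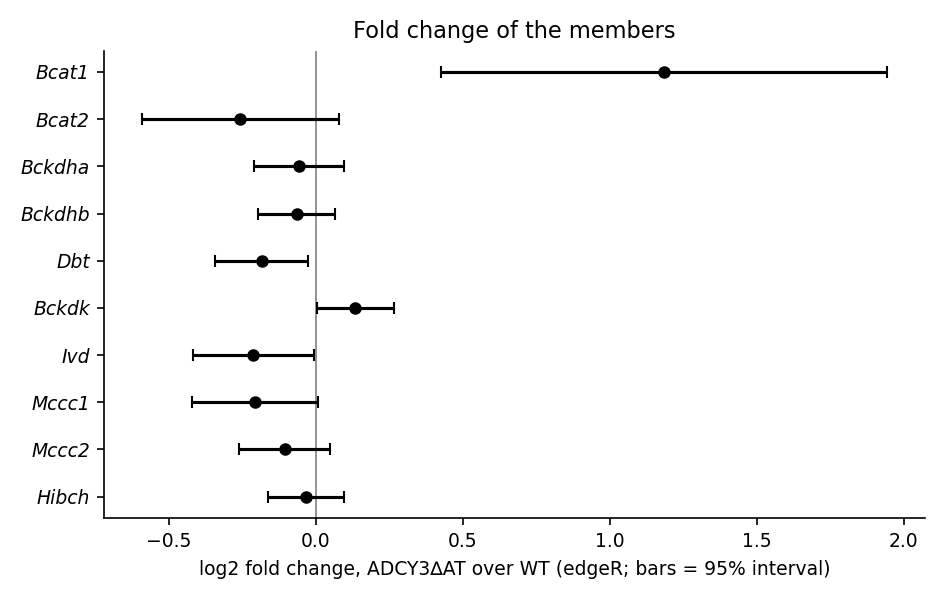
Log2 fold change of each member, ADCY3∆AT over WT, from edgeR, with 95% intervals as bars and a line at 0. The interval of Bcat1 runs from 0.43 to 1.945, those of Dbt and Ivd lie just below 0, that of Bckdk lies just above 0, and the others cross it; none has an adjusted p under 0.05 in edgeR.

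The rest of the pathway was read from 6 lists of 58 genes, of which 57 were tested. None passed in edgeR, 10 (17.5%) had an unadjusted p under 0.05, where 11.0% of all genes did, and DESeq2 called 1, Ppara, higher (adjusted p = 0.00219), where it called 1.20% of all genes with an adjusted p. Their median log2 fold change was -0.03, and the genotypes did not overlap for 10 genes (17.5%), next to 16.5% over all genes.

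Further mitochondrial steps leaned the way of the mitochondrial members: 14 of 16 had a negative log2 fold change, with a median of -0.09. The ketone body enzyme Oxct1 had 473, 442 and 606 CPM in ADCY3∆AT and 634, 697 and 598 CPM in WT (log2 fold change -0.34 ± 0.12, SE). Hsd17b10 and Acadsb, both of the isoleucine branch, had -0.20 ± 0.08 and -0.19 ± 0.08 (SE), and for both all ADCY3∆AT libraries lay below all WT libraries. The edgeR adjusted p was 0.339 for Oxct1, 0.413 for Hsd17b10 and 0.428 for Acadsb. Slc25a44, the mitochondrial carrier of branched-chain amino acids, named for its role after its values had been seen, had 80.7, 76.2 and 79.7 CPM in ADCY3∆AT and 81.9, 90.4 and 85.4 CPM in WT. Its groups did not overlap, and its log2 fold change was -0.12 ± 0.06 (SE; edgeR adjusted p = 0.474). Dld, the dehydrogenase subunit shared with other keto acid complexes, had -0.09 ± 0.06.

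In the propionate list the 4 enzymes that carry valine and isoleucine carbon onward, Pcca, Pccb, Mcee and Mut, had negative log2 fold changes of -0.11, -0.06, -0.14 and -0.14. The other 5 genes of the list, Mmaa, Mmab, Mmachc, Mmadhc and the methionine synthase Mtr, had positive values. Those of Mmachc and Mmadhc were within their SE, at 0.05 ± 0.05 and 0.04 ± 0.05. This grouping was made after the values had been seen, and Mut uses cobalamin too, as Mtr does. Mtr had a log2 fold change of 0.23 ± 0.06 (SE), methylmalonyl-CoA mutase Mut -0.14 ± 0.07 and Mmaa 0.12 ± 0.06, with edgeR adjusted p-values of 0.252, 0.480 and 0.516. Among the 5 genes for lipoate and biotin attachment, Hlcs, which biotinylates carboxylases such as MCCC1, had 8.05, 7.44 and 7.64 CPM in ADCY3∆AT, against 6.18, 5.29 and 6.52 CPM in WT. Its groups did not overlap, and its log2 fold change of 0.36 ± 0.11 (SE) did not pass in edgeR (adjusted p = 0.303). The lipoate synthase Lias had 0.11 ± 0.05 and the lipoyl transferase Lipt2 0.21 ± 0.16.

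Of 7 tested plasma membrane transporters of neutral amino acids, 4 had a negative log2 fold change. Slc43a1, a carrier of branched-chain and other large neutral amino acids, had 1.90, 1.44 and 1.89 CPM in ADCY3∆AT, against 2.31, 2.73 and 2.87 CPM in WT, without overlap (log2 fold change -0.59 ± 0.18, SE; edgeR adjusted p = 0.312). Slc7a8 had 4.88, 5.45 and 13.5 CPM in ADCY3∆AT and 11.1, 18.7 and 9.36 CPM in WT, so that ADCY3∆AT replicate 3 again lay within the WT range. Slc7a5, a light chain of the large neutral amino acid transporter, differed by 0.44 ± 0.29 (SE) in log2 fold change. That value was 0.16 without ADCY3∆AT replicate 3. Of the partners that receive the amino nitrogen, 9 of 10 had a negative log2 fold change, with a median of -0.16. The aspartate transaminase Got1 had 38.8, 56.1 and 67.9 CPM in ADCY3∆AT and 81.1, 82.5 and 67.2 CPM in WT. Gclm and Gclc, the subunits of the first enzyme of glutathione synthesis, had log2 fold changes of -0.31 ± 0.12 and -0.20 ± 0.08 (SE; edgeR adjusted p = 0.405 and 0.413).

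Of 10 regulators 8 had a positive log2 fold change, with a median of 0.07. Of these, Pparg, Mtor, Cebpb, Castor1 and Sesn2 lay within their SE, and only Ppara had an unadjusted edgeR p under 0.05. Ppara, a nuclear receptor of fuel oxidation, had 335, 346 and 333 CPM in ADCY3∆AT, against 292, 253 and 269 CPM in WT, without overlap (log2 fold change 0.32 ± 0.06, SE; edgeR adjusted p = 0.158). Klf15, a transcription factor known to activate branched-chain amino acid breakdown in muscle and heart, had 28.6, 25.5 and 43.0 CPM in ADCY3∆AT and 31.5, 58.1 and 39.5 CPM in WT. It overlapped and varied widely within each genotype (log2 fold change -0.41 ± 0.25, SE), and without WT replicate 2 the log2 fold change was -0.13. Ppargc1a, a coactivator of mitochondrial genes, had -0.17 ± 0.13, but -0.05 when ADCY3∆AT replicate 1 was left out and -0.35 when replicate 3 was. Klf15 and Ppargc1a were the only negative genes of the list.

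**Figure D4:**
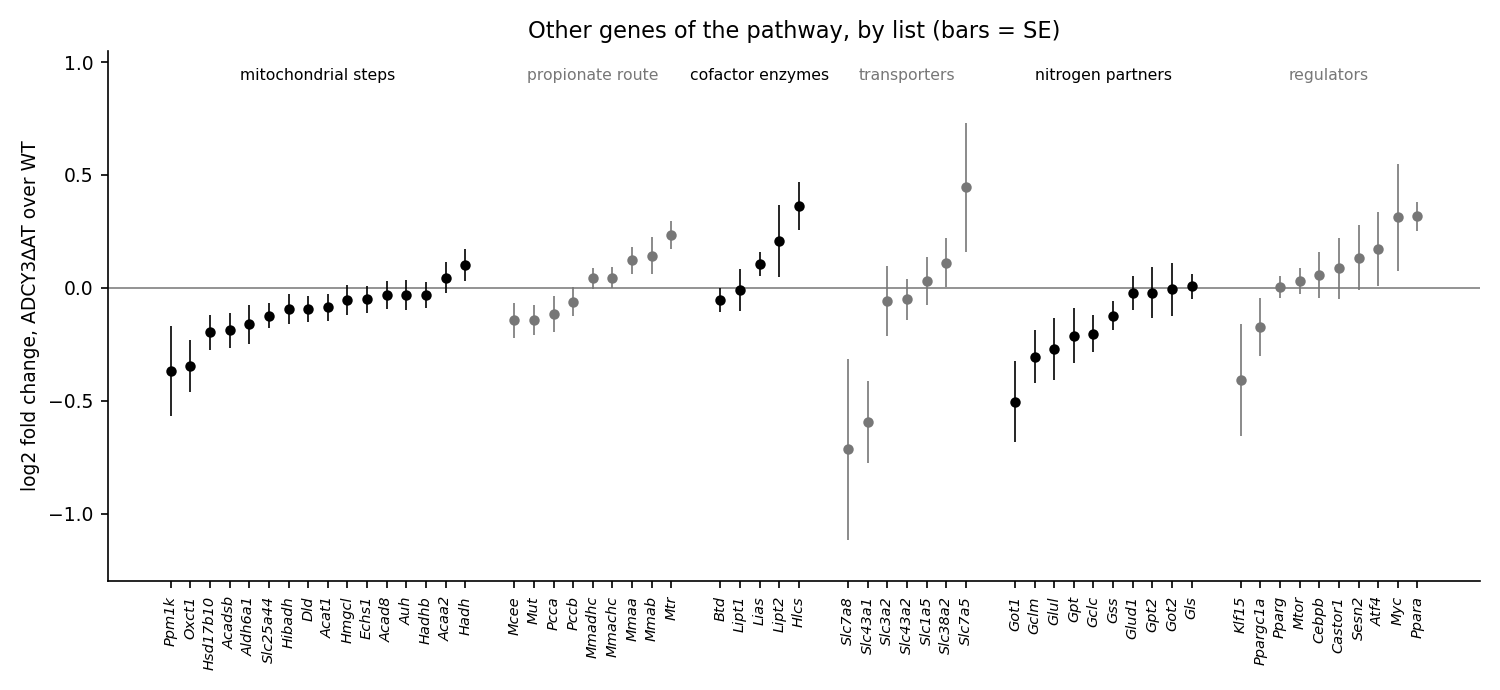
Log2 fold change, ADCY3∆AT over WT, of the 57 tested genes in 6 lists of the wider pathway, 1 point per gene with its SE, sorted within each list. Mitochondrial steps and nitrogen partners lie mostly below 0 (14 of 16 and 9 of 10) and regulators mostly above it (8 of 10), while the other lists lie on both sides. Bars that cross 0 occur in each of these lists, among them Pparg, Mtor, Cebpb, Castor1 and Sesn2 of the regulators.

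In bulk tissue, fewer cells of a type and less RNA per cell cannot be told apart, so marker lists are given beside the members. The sum of 14 skeletal muscle markers, from a tissue in which Bcat2 is known to be abundant, was 25.0, 107 and 241 CPM in ADCY3∆AT, against 716, 512 and 1418 CPM in WT. All 14 had a negative log2 fold change (median -3.11) and no overlap between genotypes, next to 8.83% of all genes lower without overlap. DESeq2 called 1 of them lower, Tnni1 (adjusted p = 1.47e-09), next to 0.737% of genes with an adjusted p. Tnni1 had only 1, 4 and 1 estimated counts in ADCY3∆AT. Of the 14 muscle markers 3, Ckm included, were at 0 in at least 1 ADCY3∆AT library. The sum of 10 brown adipocyte markers was 14709, 14889 and 15051 CPM in ADCY3∆AT and 15870, 15784 and 15648 CPM in WT, with 9 of 10 negative and a median log2 fold change of -0.05. Most of this sum was Ucp1. Dio2 (log2 fold change -0.75 ± 0.25, SE; edgeR adjusted p = 0.334) and Elovl3 (-0.38 ± 0.11; 0.305) lay below all WT libraries. DESeq2 called Elovl3 lower (adjusted p = 0.0322) and no other marker of the list. Cidea, Cox8b and Cpt1b lay within their SE, at -0.02 ± 0.06, -0.01 ± 0.06 and -0.05 ± 0.05. The 8 general adipocyte markers summed to 15480, 15555 and 16404 CPM in ADCY3∆AT and 17566, 17686 and 16526 CPM in WT. Only 4 of these 8 were negative, with a median log2 fold change of -0.00, and the mean of Lpl, lipoprotein lipase, differed by about as much as the mean of the sums, at 4145, 4850 and 6261 CPM in ADCY3∆AT and 7001, 6903 and 5859 CPM in WT. The part of these shifts in the values of Bcat2 and the mitochondrial members was not tested.

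The 11 lymphoid markers summed to 34.9, 43.0 and 17.8 CPM in ADCY3∆AT and 19.6, 11.8 and 16.9 CPM in WT, highest in the same ADCY3∆AT library as Bcat1. Most of that sum was Ighm, the immunoglobulin mu heavy chain, at 31.5, 36.9 and 14.1 CPM in ADCY3∆AT and 16.3, 8.95 and 13.5 CPM in WT, whereas the T cell receptor component Cd3e did not exceed 0.203 CPM and was at 0 in ADCY3∆AT replicate 1. All 7 tested lymphoid markers had a positive log2 fold change. The 14 macrophage markers, 12 of them positive, summed to 177, 256 and 255 CPM in ADCY3∆AT and 241, 159 and 181 CPM in WT. The groups overlapped, and within ADCY3∆AT this sum too was highest in replicate 2, by little over replicate 3. The 10 proliferation markers, all positive, summed to 55.8, 66.4 and 89.8 CPM in ADCY3∆AT and 54.1, 46.7 and 53.1 CPM in WT, without overlap and highest in replicate 3, the ADCY3∆AT library in which Bcat1 was lowest. The 10 endothelial markers, 8 of them positive, summed to 1220, 1288 and 1309 CPM in ADCY3∆AT and 1209, 1138 and 1173 CPM in WT, again without overlap. Of these, 5 were higher at an unadjusted edgeR p under 0.05, next to 5.23% of all genes tested. At that level the proliferation, lymphoid and macrophage lists had 5, 3 and 2 higher markers, and DESeq2 called 0 in each. DESeq2 called 1 of the endothelial markers higher, next to 0.462% of genes with an adjusted p. It was the endothelial cadherin Cdh5 (log2 fold change 0.28 ± 0.07 SE, DESeq2 adjusted p = 0.0196, edgeR adjusted p = 0.212). The 12 fibroblast and progenitor markers, 10 of them positive, overlapped between genotypes. In the remaining lists most markers had a negative log2 fold change, and the sums overlapped between genotypes. All 8 erythroid markers were negative (median log2 fold change -0.26). So were 6 of 7 Schwann cell and nerve markers (median -0.26) and 5 of 6 mast cell markers (median -0.13). Of the mast cell markers, Cpa3, Mcpt4, Cma1 and Tpsb2 lay within their SE. Kit was higher without overlap (log2 fold change 0.57 ± 0.18, SE; edgeR adjusted p = 0.327), and the mast cell sum was not lower in ADCY3∆AT, at 12.1, 11.2 and 14.2 CPM against 9.62, 11.8 and 14.7 CPM in WT. Whether any of these cells carried the Bcat1 reads was not tested.

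**Figure D5:**
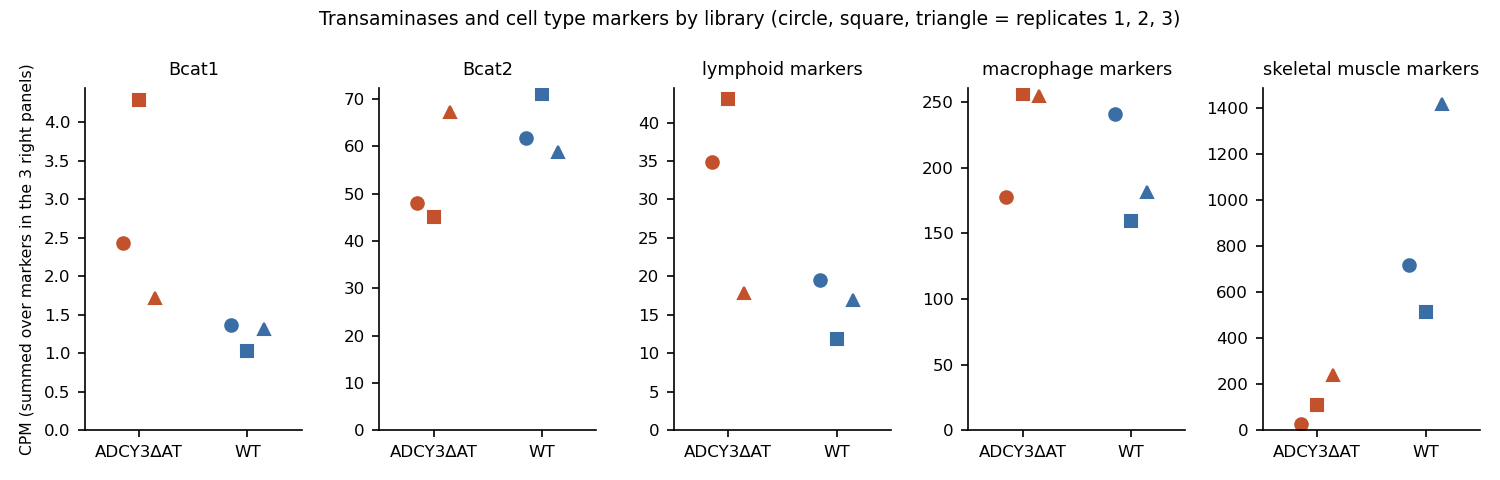
CPM of Bcat1 and Bcat2, and summed CPM of the lymphoid, macrophage and skeletal muscle marker lists, 1 point per library on linear axes from 0, ADCY3∆AT left of WT. Bcat1 and the lymphoid sum are both highest in ADCY3∆AT replicate 2 (4.29 and 43.0 CPM), and the muscle sum is lower in all ADCY3∆AT libraries (25.0 to 241 CPM) than in all WT libraries (512 to 1418 CPM).

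The genes whose pattern over the 6 libraries lay nearest to that of Bcat1, by root mean square distance of centred log2 CPM among 10997 genes whose log2 CPM averaged 1 or more, were Zbtb16 (distance 0.248), Ighm (0.250), Cela1 (0.264), Ciita (0.266) and Ncan (0.280). Zbtb16, a zinc finger transcription factor, had 56.99, 82.1 and 47.3 CPM in ADCY3∆AT and 32.1, 34.9 and 29.8 CPM in WT. Ciita, the transactivator of class II antigen presentation genes, had 3.72, 6.20 and 3.46 CPM in ADCY3∆AT and 2.66, 2.52 and 2.01 CPM in WT. Cela1 had 2.49, 4.14 and 1.74 CPM in ADCY3∆AT and 2.11, 1.09 and 1.92 CPM in WT, with overlap. Ncan had 10.19, 10.24 and 5.92 CPM in ADCY3∆AT and 5.85, 3.16 and 4.66 CPM in WT. Like Bcat1, all of these genes were highest in ADCY3∆AT replicate 2 and lowest within ADCY3∆AT in replicate 3. Since likeness to Bcat1 chose them, their difference between genotypes is given as a description only.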

How the data were processed

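Total RNA of 6 libraries was sequenced in pairs of reads. The authors deposited raw estimated counts for Ensembl genes; 31.6% of the table's entries are fractional. The submitters' processing notes name Salmon, StringTie, edgeR and GRCm38, without versions or roles. Of 54385 rows 54131 matched a gene symbol in GENCODE M21, and no value column was left unmapped.

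Counts were rounded and genes kept with filterByExpr. TMM factors and edgeR 4.0.16's quasi-likelihood test followed, with genotype as the only term and Benjamini-Hochberg adjustment over all 18114 genes (threshold 0.05). Standard errors are those implied by the F statistic, and log2 CPM used a prior count of 2. DESeq2 1.42.0 and limma 3.58.1 (voom, with and without quality weights), RLE factors, library totals, other filters, the replicate number as a block and leaving out each library were alternatives. The fits were tested on simulated data. Libraries held 44826777 to 54933588 estimated counts, of which Bcat1 had 45 to 211.

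Members and lists were chosen with earlier results of these data known. Named were all members, Adcy3, the 3 lowest p-values of each pathway list and the 5 genes nearest Bcat1. Slc25a44, Ppm1k, Dld, the rest of the propionate list and markers were named by role.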

Additional observations from a re-analysis of the deposited data

How the results depend on the processing

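All genes called numbered 1 in edgeR, 214 with no low-count filter, 231 in DESeq2, 2 in limma voom with or without quality weights, and 1 to 66 when a library was left out (66 without ADCY3∆AT replicate 3). Members called numbered 0 in every alternative except DESeq2, which called 1 (Bcat1, log2 fold change 1.19). Other pathway genes called numbered 1 with no low-count filter and 1 in DESeq2 (Ppara in both), and 0 to 1 when a library was left out (Ppm1k, without ADCY3∆AT replicate 3). Over 14 alternatives the log2 fold change of Bcat1 ranged from 0.75 to 1.44. The Bcat1 minus Bcat2 difference stayed between 0.88 and 1.82. Hibch reversed to 0.00699 without ADCY3∆AT replicate 2 (range over left-out libraries -0.07853 to 0.00699), and no other member changed sign. With the replicate block 3 genes were called over all genes, 0 members among them, and Bcat1 had a log2 fold change of 1.10 (edgeR adjusted p = 0.547). Same-numbered libraries deviated from their group means with correlations of -0.0857, -0.128 and -0.0864. These values show no pairing by number, but with 3 libraries per genotype they cannot exclude one. The causes of these differences were not tested. Low counts limit the precision of Slc7a5 and Bcat1 (36 and 45 estimated counts in their lowest library), and Bcat1 also varied between ADCY3∆AT libraries with a coefficient of variation of 47.1%.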
